A study of Mus musculus with 19 samples.

Results

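The genes described here were the immunoglobulin variable (V) segments, the germline pieces that encode most of the antigen-binding end of an antibody chain. They were taken as every gene whose symbol begins with Ighv (heavy chain), Igkv (kappa light chain) or Iglv (lambda light chain) and whose read counts summed to 20 or more over the 19 libraries. This gave 118 segments of the 278 V segments in the count table, which lists 39395 genes in all. Of the 118 segments, 52 were Ighv, 63 Igkv and 3 Iglv. The other 160 V segments had a summed count under 20, and 89 of these had no count in any library. The segments were thus chosen by their summed count over these libraries, so their total level is a description and is not tested.

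The libraries came from abdominal aortas of male Apoe-/- mice on a C57Bl/6J background, which lack apolipoprotein E and are hypercholesterolemic. All mice received angiotensin II (AngII) from a subcutaneous osmotic pump implanted at 8 to 10 weeks of age, a model of abdominal aortic aneurysm. Control mice were not irradiated (n = 5), D-3 IR mice received 1 Gy of total-body X-rays 3 days before the pump (n = 7), and D+1 IR mice received the same dose 1 day after it (n = 7). The study asked how the time of irradiation bears on the aneurysm, and the aorta of 1 mouse gave 1 library of polyA-selected RNA. The study states that mice for tissue analyses were killed at day 7, but it names no day for the sequenced aortas. Libraries held between 25839001 and 97083681 counts in genes. Libraries are named by their group and the number in their label.

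A B cell builds its antibody genes by joining 1 V segment to shorter D and J segments for the heavy chain, and 1 V to 1 J segment for a light chain. Each B cell therefore transcribes mainly 1 heavy and 1 light V segment, and its daughter cells keep the same choice. A large mixed population shows many segments, whereas a few expanded clones or a few antibody-secreting plasma cells show few. In bulk tissue, fewer B cells and less antibody RNA per B cell cannot be told apart.

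The V exon ends shortly after the codon of a conserved cysteine, and the bases that follow begin the third antigen-binding loop, which the joining step completes. The last 150 bases of the V exon are shown for 7 segments, from the conserved cysteine codon onward in capitals, 5′ to 3′ as transcribed (GENCODE M21 transcripts, GRCm38). Igkv6-32 and Igkv12-44 held the largest share of V counts in the 2 libraries with most V counts, Ighv1-80 and Ighv3-6 were their leading heavy segments, Igkv4-50 and Ighv1-76 led the library with the fewest segments, and Igkv1-117 was first in 3 libraries.
Igkv6-32 (chr6:70074024-70074173, minus strand): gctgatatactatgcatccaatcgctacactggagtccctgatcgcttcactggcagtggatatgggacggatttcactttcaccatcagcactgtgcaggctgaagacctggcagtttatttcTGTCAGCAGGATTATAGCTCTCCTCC
Igkv12-44 (chr6:69814631-69814780, minus strand): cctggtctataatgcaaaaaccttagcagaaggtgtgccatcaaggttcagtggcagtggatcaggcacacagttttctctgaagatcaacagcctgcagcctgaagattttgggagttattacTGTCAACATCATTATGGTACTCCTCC
Igkv1-117 (chr6:68121678-68121827, plus strand): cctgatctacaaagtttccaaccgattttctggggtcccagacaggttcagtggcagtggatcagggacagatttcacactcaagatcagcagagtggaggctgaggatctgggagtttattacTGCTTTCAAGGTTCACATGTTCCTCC
Igkv4-50 (chr6:69700767-69700916, minus strand): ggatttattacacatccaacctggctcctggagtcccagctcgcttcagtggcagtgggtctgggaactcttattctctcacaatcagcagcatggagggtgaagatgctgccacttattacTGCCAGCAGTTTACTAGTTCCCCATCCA
Ighv1-76 (chr12:115847881-115848030, minus strand): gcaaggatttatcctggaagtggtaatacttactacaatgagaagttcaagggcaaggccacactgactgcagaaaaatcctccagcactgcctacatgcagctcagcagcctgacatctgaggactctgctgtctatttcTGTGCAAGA
Ighv1-80 (chr12:115912344-115912493, minus strand): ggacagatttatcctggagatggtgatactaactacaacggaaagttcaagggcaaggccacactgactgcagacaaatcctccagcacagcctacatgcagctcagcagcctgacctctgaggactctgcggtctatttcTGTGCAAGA
Ighv3-6 (chr12:114288152-114288301, minus strand): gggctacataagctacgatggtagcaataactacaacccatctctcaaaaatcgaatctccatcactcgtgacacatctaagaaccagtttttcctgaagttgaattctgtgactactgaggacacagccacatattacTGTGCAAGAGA

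The 52 Ighv segments lay on chromosome 12 between 113588267 and 116000461, all on the minus strand, and the 63 Igkv segments on chromosome 6 between 67609713 and 70699067, with 22 on the plus and 41 on the minus strand. The 3 Iglv segments lay on chromosome 16 between 19085017 and 19260859. All 118 segments are annotated as V genes (IG_V_gene) and none as a pseudogene, whereas 66 of the 160 V segments under the threshold are pseudogenes. The pseudogenes held 22 counts in all. A V segment is short, with a median transcript of 357.5 bases for the Ighv and 362 bases for the Igkv segments.

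V transcripts were rare in most aortas. The V counts were 76, 91, 500, 78 and 127 in control mice 4, 5, 6, 8 and 9. D-3 IR mice gave 19, 38, 121, 159, 166, 246 and 4351 V counts, and D+1 IR mice gave 29, 49, 61, 207, 477, 548 and 4222. Together, D-3 IR 10 and D+1 IR 3 held 74.1% of the 11565 V counts, and 8 of the 19 libraries held under 100.

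As counts scaled to a common library size (counts per 1000000, CPM) with TMM factors, which correct for library composition, the summed V level ranged from 2.40 to 8.52 in the control group, with a median of 2.80 (n = 5). It ranged from 0.726 to 109 in the D-3 IR group, with a median of 2.05 (n = 7), and from 0.343 to 146 in the D+1 IR group, with a median of 5.20 (n = 7). The groups overlapped throughout: both irradiated groups reached below the lowest and above the highest control mouse. Without D-3 IR 10 and D+1 IR 3, the median was 1.74 in the D-3 IR group and 3.27 in the D+1 IR group. The highest value was then 8.20 (D-3 IR 16) and 16.9 (D+1 IR 18), beside 8.52 in control 6. With any 1 library left out, the median ran from 1.74 to 3.27 in the D-3 IR group, the highest without D-3 IR 12, 13 or 15, and from 3.27 to 9.85 in the D+1 IR group. The latter was lowest without D+1 IR 3, 18 or 20 and highest without D+1 IR 1, 17 or 19.

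**Figure D1:**
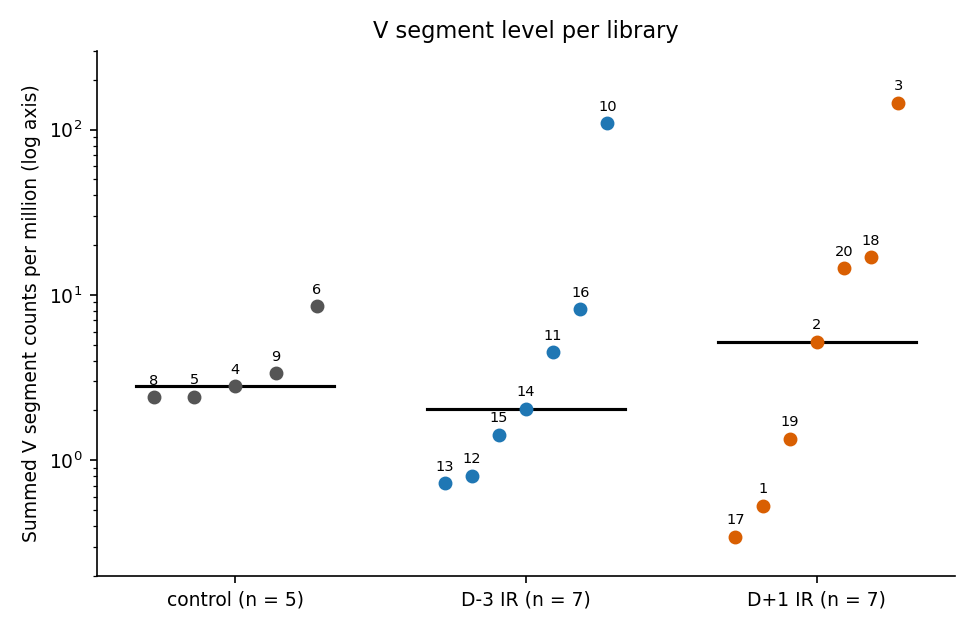
Summed V segment level in CPM (log axis) in each of the 19 libraries, by group, with the number in each library's label above its point and the group median as a line. D-3 IR 10 (109) and D+1 IR 3 (146) stand above all others, which lie between 0.343 and 16.9.

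Nearly all segments were highest in 1 or both of these 2 libraries. This is in part built in, since the segments were chosen by summed counts that came mostly from these libraries. The share of all genes with this pattern is not given here. Of the 118 segments, 116 had a count in both of them, 87 were higher in both than in any of the 17 other libraries, and 21 were higher in 1 of them than in any other. The remaining 10 segments had their highest level elsewhere. Igkv4-50 was highest in D-3 IR 14, with 66 counts or 0.851 CPM, against 0.579 CPM in mouse D-3 IR 10 and 0.483 CPM in mouse D+1 IR 3. Ighv1-54 was highest in control 8, with 20 counts or 0.616 CPM. Without D-3 IR 10 and D+1 IR 3, only 49 segments would have reached a summed count of 20, and 2 segments had no count outside these libraries.

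Markers of B cells, T cells and lymph node stroma were also highest in these libraries. All 12 of the B cell markers examined were higher in both D-3 IR 10 and D+1 IR 3 than in any other library. The share of all genes with this pattern is not given, for these lists or for the plasma cell and B1 cell lists below. Their summed level was 658 CPM in mouse D-3 IR 10 and 421 CPM in mouse D+1 IR 3 against 2.54 to 41.3 CPM in the 17 others, and ranged from 6.19 to 26.8 CPM in control, 3.81 to 658 CPM in the D-3 IR group and 2.54 to 421 CPM in the D+1 IR group. Cd79a, which encodes a signalling chain of the B cell receptor, stood at 174 and 101 CPM in these libraries against at most 8.41 CPM elsewhere, and 8 of the 12 markers were above 0 in every library.
All 8 T cell markers behaved likewise, with summed levels of 290 CPM in mouse D-3 IR 10 and 152 CPM in mouse D+1 IR 3 against 3.52 to 30.4 CPM elsewhere. By group, this sum ranged from 5.21 to 9.39 CPM in control, 3.52 to 290 CPM in the D-3 IR group and 3.85 to 152 CPM in the D+1 IR group, and no T cell marker was at 0 in any library.
All 7 lymph node stroma genes found did the same, with sums of 632 and 361 CPM against 8.96 to 110 CPM elsewhere. Cr2 is also among the B cell markers, so the lists share a gene, here and in the tests below, and are not separate. Glycam1, a mucin of the high endothelial venules of lymph nodes, was at 214 CPM in mouse D-3 IR 10 and 115 CPM in mouse D+1 IR 3, at 0 in 10 libraries, and at most 16.9 CPM in the rest. Group ranges of the stroma sum were 12.1 to 32.6 CPM in control, 12.3 to 632 CPM in the D-3 IR group and 8.96 to 361 CPM in the D+1 IR group. None of the 12 B cell, 8 T cell and 6 stroma genes tested was called in any comparison between groups by edgeR, the test described with the segments. At an unadjusted p under 0.05 in D-3 IR versus control, 5 of the 8 T cell genes (Cd3e, Cd3g, Cd4, Cd8a and Trbc2), 2 stroma genes (Glycam1 and Ccl21a) and 1 B cell gene (Bank1) were higher, beside 1.32% of all genes in either direction. The group medians of the T cell sum were 6.60 CPM and 6.47 CPM, and D-3 IR 10 stood far above both. In D+1 IR versus control, 2 stroma genes (Glycam1 and Cxcl13) were higher, beside 7.11% of all genes. The part of T cells and lymph node tissue in the V level was not tested.

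The tissue label was checked against 5 smooth muscle genes. All 5 were detected in every library, and their sum, led by the contractile actin Acta2, was 1980 to 27550 CPM in the 17 other libraries. It was 11487 CPM in mouse D-3 IR 10 and 1159 CPM in mouse D+1 IR 3, the lowest of all libraries.

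The number of segments with at least 1 count ran from 7 to 118. It was 31 at the median in the control group (range 23 to 70), 22 in the D-3 IR group (7 to 118) and 51 in the D+1 IR group (12 to 116). With 1 library left out, the D-3 IR median ran from 17.5, without D-3 IR 10, 11 or 16, to 36, without D-3 IR 12, 13 or 14, so that its place below the control median rested on single libraries. This number followed the number of V counts. The 9 segments of D-3 IR 13 came from 19 V counts and the 12 segments of D+1 IR 17 from 29, while control 6, D+1 IR 20 and D+1 IR 18 had 477 to 548 V counts and 68 to 70 segments.

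**Figure D2:**
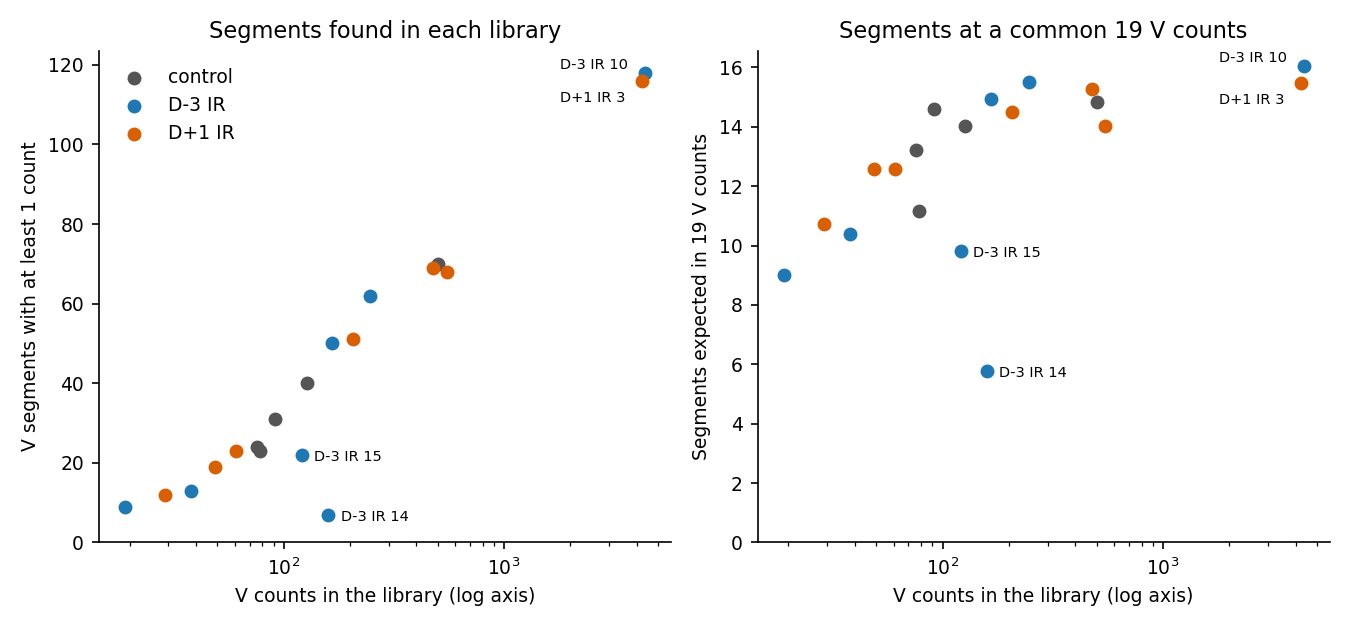
Left, V segments with at least 1 count against the V counts of each library (log axis). Right, segments expected in a random draw of 19 V counts from each library. D-3 IR 14 and D-3 IR 15 fall below libraries of similar V counts in both panels, at 7 and 22 segments and at 5.79 and 9.82 expected segments.

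To set libraries at 1 depth, the number of segments expected in a draw of 19 V counts, the total of the smallest library, was computed exactly. It was 14.0 at the median in the control group (11.2 to 14.8), 10.4 in the D-3 IR group (5.79 to 16.1) and 14.0 in the D+1 IR group (10.7 to 15.5). The control and D+1 IR medians, 31 and 51 before, were thus equal to 3 digits at the common depth. The lowest value was that of D-3 IR 14 and the next lowest that of D-3 IR 13, at 9.00. At 121 V counts, which 11 libraries reached, D-3 IR 14 held all of its 7 segments and D-3 IR 15 held 22.0, against 39.7 to 56.7 in the 9 other libraries.

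The segments were used unevenly. The effective number of segments, the inverse Simpson index, is the number of equally used segments that would give the same evenness. It was 48.3 in mouse D-3 IR 10 and 35.1 in mouse D+1 IR 3. The group medians were 19.2 in control (8.92 to 28.8), 9.50 in D-3 IR (4.10 to 48.3) and 23.1 in D+1 IR mice (10.1 to 35.1), and the ranges overlapped. With 1 library left out, the D-3 IR median ran from 8.70, without D-3 IR 10, 11 or 16, to 18.6, without D-3 IR 13, 14 or 15. When the 17 other libraries were summed, their 2992 V counts spread over 116 segments with an effective number of 56.5, above that of any single library.

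**Figure D3:**
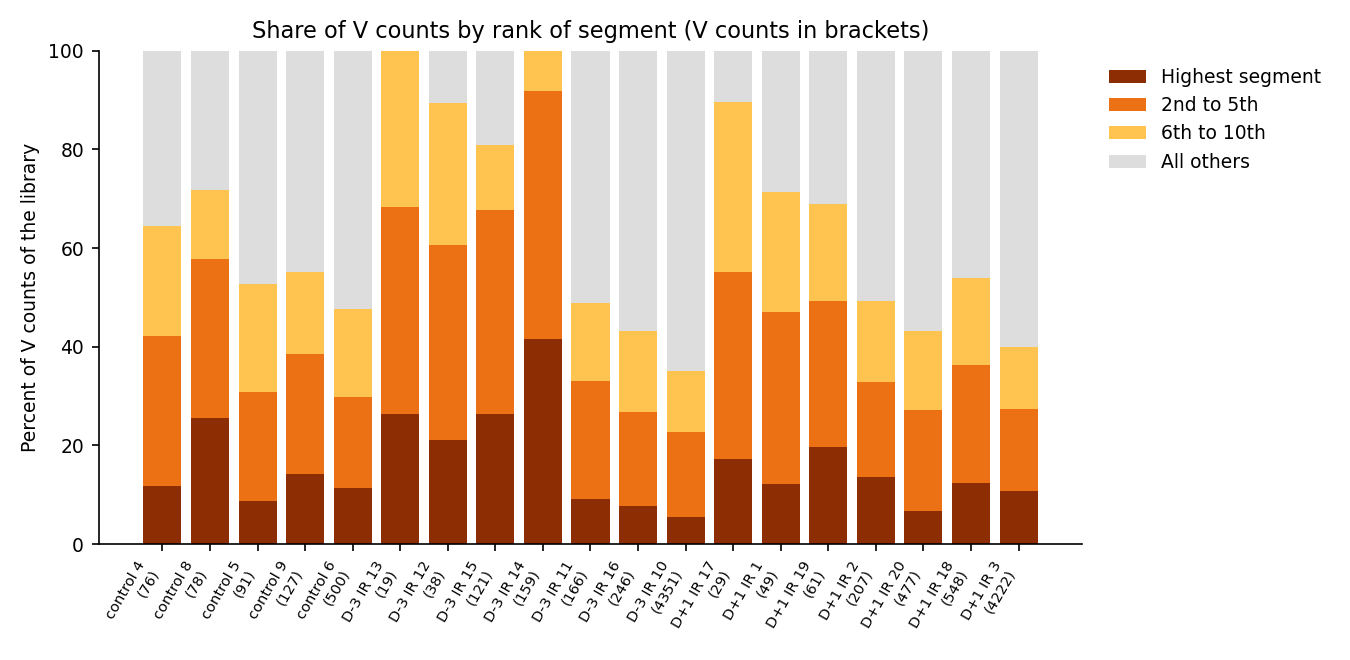
Percent of the V counts of each library held by its highest segment, its 2nd to 5th, its 6th to 10th and all other segments, with V counts in brackets. The highest segment held 41.5% in D-3 IR 14 and 5.38% in D-3 IR 10. In the libraries with fewest V counts, such as D-3 IR 13 with 19, a single count already makes a sizeable share.

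D-3 IR 14 stood apart. Its 159 V counts came from 7 segments, with 66 from Igkv4-50, 28 from Ighv1-76, 22 from Ighv5-9, 17 from Igkv17-127, 13 from Ighv1-53, 7 from Ighv2-9 and 6 from Ighv1-85. Igkv4-50 alone made 41.5% (Wilson 95% interval 34.1 to 49.3%), and 79.5% of the kappa counts. These shares cover the segments described here only. They leave out 33 counts of Igkv4-73 and 4 of Igkv4-56 in this library, from genes not listed in the count table. With those counts added, Igkv4-50 would hold a smaller share and more segments would be in use. No lambda segment had a count there, which allows a lambda share of V counts of up to 1.89%. Lambda transcripts were still present, since the lambda constant regions Iglc2 and Iglc3 had 10 and 13 counts in this library. Igkv4-50 had no count in 14 libraries, and Ighv1-76 had none in 13.
The B cell receptor gene Cd79a had no count in D-3 IR 14, whereas Cd79b, its partner chain, had 146. Mzb1, a chaperone of plasma cells and some B cell subsets, had 16 counts or 0.206 CPM there, against 0.629 CPM in mouse D-3 IR 10 and 0.483 CPM in mouse D+1 IR 3, and it was at 0 in 12 libraries. The constant region genes Igkc and Igha had 127 and 104 counts in this library.

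Other libraries were led by 1 segment at a lower share. Igkv1-117 made 26.4% of the 121 V counts of D-3 IR 15 (interval 19.4 to 34.9%), followed by Igkv8-19 with 18 counts and Ighv1-18 with 17. Ighv1-54 made 25.6% of the 78 V counts of control 8 (17.3 to 36.3%), where it held 20 of the 30 heavy counts. Ighv3-1 made 19.7% of the 61 V counts of D+1 IR 19 (11.6 to 31.3%). In the libraries with more V counts the leading share was smaller, at 11.4% for Igkv5-39 in control 6, 12.4% for the same segment in D+1 IR 18 and 6.71% for Igkv1-117 in D+1 IR 20. The share of the first segment ranged from 8.79 to 25.6% in control, 5.38 to 41.5% in D-3 IR and 6.71 to 19.7% in D+1 IR mice.

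The 3 chains kept a similar balance in most libraries. Kappa segments held 67.4% of all V counts, heavy segments 23.8% and lambda segments 8.87%. The heavy share of V counts was 17.6 to 38.5% in control, 18.5 to 47.8% in D-3 IR and 24.8 to 44.3% in D+1 IR mice, with medians of 25.0, 29.8 and 30.4%. Among light chain counts, kappa made up 87.7 to 100% in control, 46.7 to 100% in D-3 IR and 84.7 to 100% in D+1 IR mice. Mouse antibodies are mostly of the kappa type.
The lowest kappa shares were those of D-3 IR 13, at 46.7% of 15 light chain counts (interval 24.8 to 69.9%), and D-3 IR 12, at 54.2% of 24 (35.1 to 72.1%). In D-3 IR 10 and D+1 IR 3 the kappa share was 88.7% (87.6 to 89.7%) and 86.4% (85.1 to 87.5%). Control 8, D-3 IR 14 and D+1 IR 19 had no lambda V count, but each had counts of lambda constant regions. Iglc2 had 4, 10 and 8 counts in these libraries.

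No segment was detected in every library. Igkv6-15 was found in 15 libraries, the most, and Igkv1-117 in 14, while the median segment was found in 6, and 22 segments in 10 or more. The 10 segments with the largest sums held 32.7% of V counts.

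**Figure D4:**
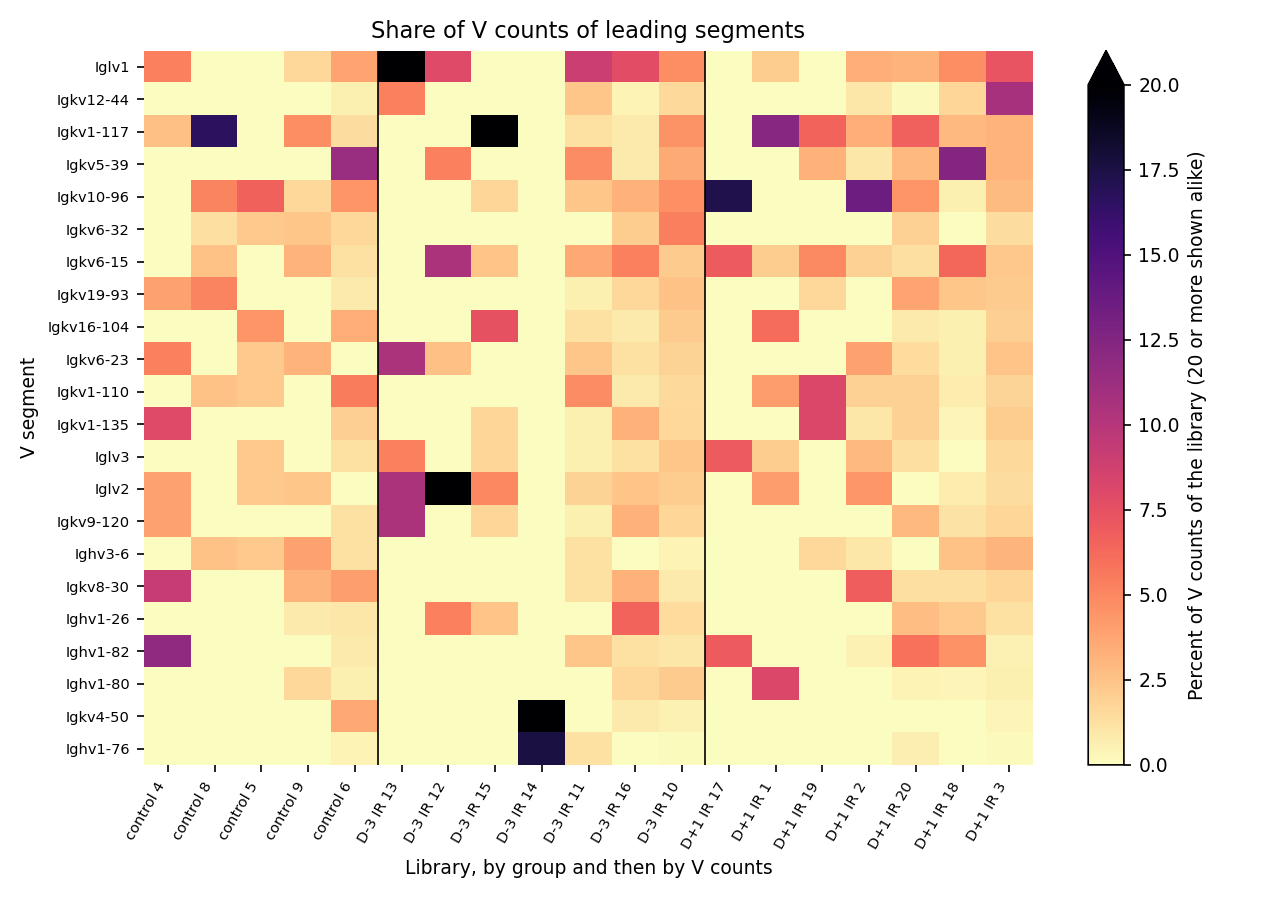
Percent of the V counts of each library (colour, from 0 to 20% or more) held by the 20 segments with the largest summed counts among those named by rule, in order of that sum, and by Igkv4-50 and Ighv1-76. Columns are libraries, by group and then by V counts. Dark cells fall on different segments in different libraries, such as Igkv4-50 in D-3 IR 14 and Igkv1-117 in D-3 IR 15.

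Among kappa segments, Igkv1-117 had 195 counts in mouse D-3 IR 10 and 132 in mouse D+1 IR 3. In the control group it had 2, 0, 7, 13 and 6 counts in mice 4, 5, 6, 8 and 9. It also had 32 counts in both D-3 IR 15 and D+1 IR 20, and was first overall in D-3 IR 15, D+1 IR 1 and D+1 IR 20. It shared the first place in D+1 IR 1 with Ighv1-55, at 6 counts each, and was the first kappa segment in control 8. The libraries it led were thus in both irradiated groups.
Igkv5-39 had 57 counts in control 6 and none in the 4 other control mice. It had 155 counts in D-3 IR 10, then 133 in D+1 IR 3 and 68 in D+1 IR 18, and at most 14 in each of the others. Its high libraries were spread over all 3 groups.
Igkv10-96 had 0, 6, 22, 4 and 2 counts in the control mice, 201 in D-3 IR 10, then 119 in D+1 IR 3 and 28 in D+1 IR 2, where it was first. Igkv12-44 had 450 counts in D+1 IR 3 and 67 in D-3 IR 10, and at most 9 in any other library, so that 96.1% of its 538 counts came from these 2. Igkv6-32 likewise had 91.3% of its 321 counts there, with 234 in mouse D-3 IR 10 and 59 in mouse D+1 IR 3.

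Among heavy segments no single one dominated. Ighv3-6 had the largest sum, with 185 counts, of which 131 came from D+1 IR 3 and 20 from D-3 IR 10. Ighv1-82 was spread more widely, with 46.5% of its 142 counts in these 2 libraries. It had 28 counts in D+1 IR 20, 25 in D+1 IR 18 and 9 in control 4, and was the first heavy segment in all 3. The first heavy segment was a different one in D-3 IR 10 (Ighv1-80, 93 counts), D-3 IR 11 (Ighv14-4, 10 counts), D-3 IR 14 (Ighv1-76, 28 counts), D-3 IR 15 (Ighv1-18, 17 counts) and D-3 IR 16 (Ighv1-26, 16 counts).

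Among lambda segments, Iglv1 had the largest sum of all 118 segments, with 630 counts, against 197 for Iglv2 and 199 for Iglv3. Iglv1 had 309 counts in D+1 IR 3 and 205 in D-3 IR 10, 26 in D+1 IR 18, 19 in both control 6 and D-3 IR 16, and none in 6 libraries. It was first overall in D-3 IR 11, D-3 IR 13 and D-3 IR 16. Its share of lambda counts was 71.5% in D+1 IR 3, 51.2% in D-3 IR 10 and 59.8% in the other libraries summed.
Iglv1 and Iglv2 are near copies, with 12 differences in the 366 bases compared (96.7% identity). Reads that fit both equally are not counted. Of their 100-base windows, 98.3% for Iglv1 and 98.1% for Iglv2 were found in no other V segment. Their last 150 bases are shown, with the 5 differing bases in capitals.
Iglv1 (chr16:19085017-19085166, minus strand): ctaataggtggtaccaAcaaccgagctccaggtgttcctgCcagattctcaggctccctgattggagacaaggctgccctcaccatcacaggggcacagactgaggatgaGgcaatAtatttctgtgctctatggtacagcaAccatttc
Iglv2 (chr16:19260401-19260550, minus strand): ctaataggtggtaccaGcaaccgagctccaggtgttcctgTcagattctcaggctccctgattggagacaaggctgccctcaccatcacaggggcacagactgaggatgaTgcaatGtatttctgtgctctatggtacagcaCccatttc
Near copies were common. Of the segments described, 32 Ighv, 28 Igkv and 2 Iglv had another V segment at 95% identity or more over their last 250 bases. Even so, 1 of the 118, Igkv6-20, had under 50% of its 100-base windows found in no other V segment (44.2%).

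The 2 libraries with most V counts drew on much the same set of segments but in different proportions. Of their 10 highest segments, 5 were shared, namely Iglv1, Igkv1-117, Igkv5-39, Igkv10-96 and Igkv19-93. The smaller of the 2 shares, summed over segments, came to 66.2%. Wilson 95% intervals of the share were apart for 42 of the 118 segments, with 24 higher in D-3 IR 10 and 18 higher in D+1 IR 3. With counts halved, as would hold if both mates of a read pair were counted, 24 were apart. The intervals cover counting error only, and each library is 1 mouse, so the difference is between these libraries and not between the groups.

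**Figure D5:**
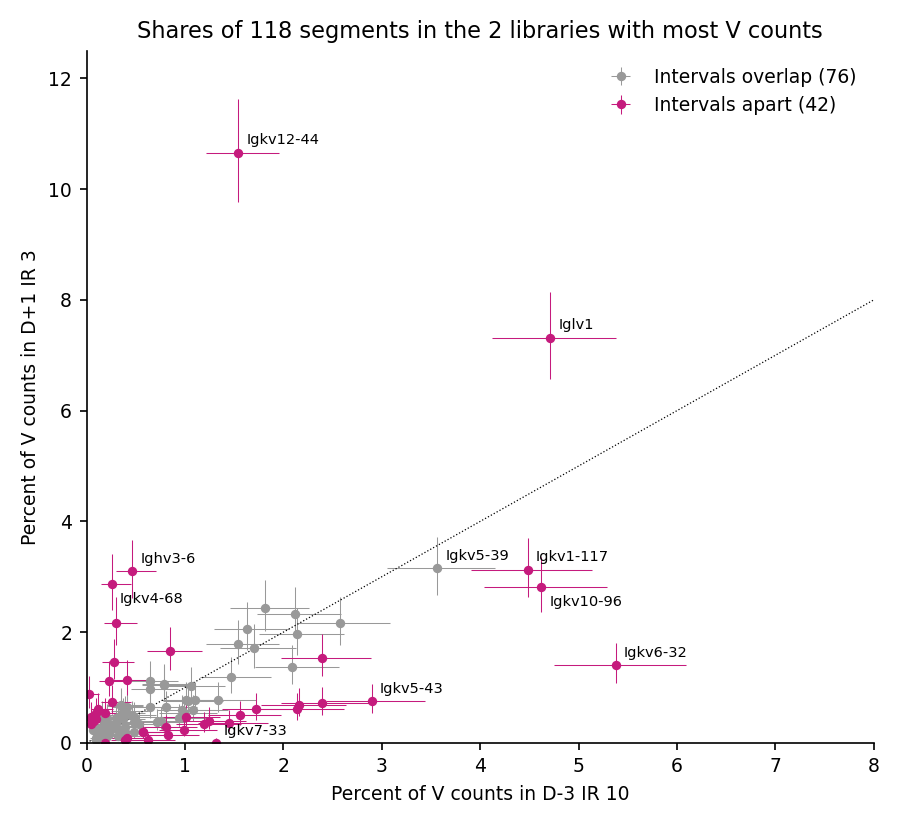
Percent of V counts held by each of the 118 segments in D-3 IR 10 (horizontal) and D+1 IR 3 (vertical), with Wilson 95% intervals. The 42 segments whose intervals were apart are in magenta, and the dotted line marks equal shares. Igkv12-44 lies far above the line and Igkv6-32 far below it.

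Igkv12-44 made up 10.7% of V counts in D+1 IR 3 (9.76 to 11.6%) and 1.54% in D-3 IR 10 (1.21 to 1.95%). Ighv3-6 made up 3.10% (2.62 to 3.67%) against 0.46% (0.30 to 0.71%), and Igkv4-68 2.87% (2.40 to 3.41%) against 0.25% (0.14 to 0.45%). In the other direction, Igkv6-32 made up 5.38% in D-3 IR 10 (4.75 to 6.09%) and 1.40% in D+1 IR 3 (1.08 to 1.80%). Igkv5-43 made up 2.90% (2.44 to 3.44%) against 0.76% (0.54 to 1.07%). Igkv7-33 had 57 counts in D-3 IR 10 and none in any other library.

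By family, segments that share their first number, Ighv1 was the largest heavy family, with 24 of the 52 Ighv segments and 84 of the 172 in the table. It held 57.1% of heavy counts in D-3 IR 10, against 48.6% in D+1 IR 3 and 54.2% in the 17 other libraries summed. Ighv3, with 3 segments, held 6.07, 14.4 and 5.60% in the same order, and Igkv12, with 6 segments, held 5.44, 20.8 and 6.04% of kappa counts. Igkv12-44 gave 450 of the 570 Igkv12 counts of D+1 IR 3. Igkv8 was higher in D-3 IR 10, with 12.7% of kappa counts against 6.42% in D+1 IR 3 and 10.3% in the others.
By position, segments lying farther from the J segments than the median of all V segments of the locus in the table held 59.6% of heavy counts in D-3 IR 10, against 50.7% in D+1 IR 3 and 56.1% in the 17 others, from 25 of the 52 segments. For kappa the segments beyond that median held 42.3, 39.5 and 44.7%, from 28 of 63 segments. Proximal and distal segments were thus both in use.

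Across all genes, edgeR's quasi-likelihood test with Benjamini-Hochberg adjustment called 0 of 17617 genes (0%) in each comparison, namely D-3 IR versus control, D+1 IR versus control and D-3 IR versus D+1 IR. At an unadjusted p under 0.05, 232 genes (1.32%), 1253 genes (7.11%) and 2018 genes (11.5%) passed in these comparisons. DESeq2 called 0 genes (0%), 2 genes (0.0114%) and 56 genes (0.318%), with 346 (1.96%), 1650 (9.37%) and 2643 (15.0%) at an unadjusted p under 0.05. Only 7 of the 118 V segments passed the filter on low counts, namely Iglv1, Igkv1-117, Igkv5-39, Igkv10-96, Igkv8-30, Ighv1-26 and Ighv1-82. None of the 7 was called in any comparison by either tool, and none reached an unadjusted p under 0.05 in either. The remaining segments were too low to be tested.

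The fitted differences of these 7 segments were large but so were their errors. Iglv1 had a log2 difference of 3.94 (SE 2.00) in D+1 IR versus control, with an unadjusted p of 0.0645 and an adjusted p of 0.644 in edgeR, and 3.04 (SE 1.93) in D-3 IR versus control. Its CPM values were 0.147, 0, 0.324, 0 and 0.0530 in the control mice. In the D-3 IR group they ranged from 0 to 5.16 with a median of 0.191, and in the D+1 IR group from 0 to 10.7 with a median of 0.176. All groups thus held libraries at or near 0.
Ighv1-26 had log2 differences of 3.43 (SE 1.90) and 3.56 (SE 1.91) in D-3 IR and D+1 IR versus control. The 7 segments had a median log2 difference of 2.35 in D-3 IR versus control, 2.39 in D+1 IR versus control and -0.75 in D-3 IR versus D+1 IR, beside -0.03, -0.04 and -0.04 over all genes tested. The 2 comparisons against control share the control mice, and D-3 IR versus D+1 IR shares an irradiated group with each of them.
These medians rested on 2 libraries. Without D-3 IR 10 the median in D-3 IR versus control was -0.70, over the 3 segments then tested, and in D-3 IR versus D+1 IR it was -3.26, with 2 of the 3 at an unadjusted p under 0.05. Without D+1 IR 3 the medians in D+1 IR versus control and in D-3 IR versus D+1 IR were 0.94 and 1.68, again over 3 segments. With no filter on low counts all 118 segments were tested in edgeR. Of them, 10, 20 and 5 reached an unadjusted p under 0.05, beside 5.60, 7.26 and 12.1% of all 35160 genes. The segments were chosen by summed counts that came mostly from D-3 IR 10 and D+1 IR 3. A lean above control is thus in part built in, and these numbers are a description that cannot be set against the share of all genes. None of the 118 was called.

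The constant regions, which are joined to V segments by splicing, followed the same libraries. Of the 13 constant region genes examined, 10 were tested and 0 were called in any comparison, with 1, Ighg2c, at an unadjusted p under 0.05 in D+1 IR versus control, beside 7.11% of all genes. Their median log2 difference was 2.89 for D-3 IR and 2.90 for D+1 IR versus control. The summed level of the 13 genes had a median of 22.4 CPM among D-3 IR mice, below the 25.8 CPM of control mice. Among D+1 IR mice this median was 37.6 CPM. The sum reached 855 CPM in mouse D-3 IR 10 and 726 CPM in mouse D+1 IR 3, against 6.59 to 169 CPM elsewhere. The fitted rise in D-3 IR mice was thus not seen in their median. No fit of these genes without these libraries is given here. Igkc, the kappa constant region, was at 296 CPM in mouse D-3 IR 10 and 234 CPM in mouse D+1 IR 3 and between 0.343 and 49.4 CPM elsewhere.
Kappa V counts per 100 Igkc counts ranged from 16.3 to 77.8, with a median of 48.5, and were 26.7 in mouse D-3 IR 10 and 40.4 in mouse D+1 IR 3. The lowest value was that of D+1 IR 20, with 265 kappa V counts and 1626 Igkc counts. This library also had 2473 counts of Igha, the constant region of IgA, which made 63.8% of its heavy constant counts against 0 to 26.2% in the 18 others. Ighg2c, an IgG subclass, was at 58.2 CPM in D+1 IR 3 and 16.7 CPM in D-3 IR 10, with at most 0.733 CPM elsewhere. Ighd, the IgD constant region of naive B cells, made 18.3 and 16.7% of heavy constant counts in D-3 IR 10 and D+1 IR 3, and 1.75 to 15.8% in the others.
Ighm, the IgM constant region, was found in every library, also where V counts were fewest. It had at least 372 counts in each, and 372 in D-3 IR 13, where 4 heavy V counts were found. Heavy V counts per 100 Ighm counts ranged from 0.760 in D+1 IR 1 to 18.4 in D+1 IR 20.

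None of the 14 J segments passed the filter on low counts, and 2 of them had no count in any library. Of the 12 genes of V(D)J recombination and class switching, 8 were tested and 0 were called, with 0 at an unadjusted p under 0.05 in D-3 IR versus control, 2 in D+1 IR versus control and 1 in D-3 IR versus D+1 IR, beside 1.32, 7.11 and 11.5% of all genes. These were Ung, a uracil glycosylase, and Xrcc6, a DNA end-binding protein, in the second comparison, and Xrcc6 in the third. Both belong to repair pathways that many tissues express. Rag1 and Rag2, the enzyme pair that cuts the segments in developing lymphocytes, had 37 and 2 counts over all libraries. Of the 8 precursor B cell genes, Ebf1 and Il7r were found in every library. Vpreb1 was at 0 in 1 library, Dntt in 5, Rag1 in 13, Igll1 in 14, and Vpreb2 and Rag2 in 18 each.
Of the 11 plasma cell genes, 3 were higher in both D-3 IR 10 and D+1 IR 3 than elsewhere, among them Jchain, which joins IgA and IgM units, at 31.3 and 23.5 CPM against at most 6.26 CPM. Their summed level was 273 and 280 CPM in these libraries, within the 200 to 528 CPM of the others. Xbp1 and Sdc1, which were found in every library, gave most of this sum, with 90.3 and 66.0 CPM in D-3 IR 10 and 165 and 17.2 CPM in D+1 IR 3. Of the 6 B1 cell genes, 2 were higher in both.

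The genes whose levels ranked most like the summed V level over the 19 libraries included B cell genes. Among 17600 tested genes outside the immunoglobulin loci, Faim3 (also called Fcmr), which encodes an IgM receptor, had Spearman's rho of 0.94, Cd79b 0.93, Pax5 0.93 and Tnfrsf13c 0.92. Cd79b encodes a signalling chain of the B cell receptor, Pax5 is the factor that sets B cell identity, and Tnfrsf13c is a receptor for the survival factor BAFF. Over the 17 libraries without D-3 IR 10 and D+1 IR 3, rho for these genes was 0.92, 0.91, 0.91 and 0.90 in the same order. These are descriptions across libraries, whose V levels rest on few counts in most.

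At the threshold, Ighv8-5 and Igkv4-69 were just inside with 20 counts each. Ighv8-5 had 14 of them in D+1 IR 3, and Igkv4-69 had at most 4 in any of its 6 libraries. Ighv1-36 and Igkv8-16 were just outside with 19 counts each, and Ighv1-36 had 15 of its counts in D+1 IR 20.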

How the data were processed

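RNA sequencing libraries from 19 abdominal aortas were used. Per the labels, the authors checked reads with FastQC, mapped them to GRCm38 with STAR 2.7.9a and deposited raw gene counts of uniquely mapped reads. The unstranded counts were used, since the second-strand column held 49.9 to 50.1% of stranded counts. Reads that map to several segments are not counted by this setting, so V segments with near copies lose reads. Whether mates of a pair were counted separately is not given in the sources used here, and 39.3% of the 827 segment counts above 0 were odd. The value 2 occurred 219 times, against 86 times for 1, 56 for 3 and 85 for 4. If mates were counted separately, the Wilson intervals are too narrow and the random draws treat linked counts as independent. Halved counts were used only to compare shares between the 2 libraries with most V counts, where 24 segments in place of 42 were apart.

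The V counts of a library were summed over the 118 segments. CPM values (counts per 1000000) used edgeR TMM factors. Shares have Wilson 95% intervals, and a count of 0 was read as allowing up to 3 counts. Both cover counting error only, since reads carry no molecular identifiers. The 3 comparisons were fitted across all genes and all 19 libraries with edgeR 4.0.16 (R 4.3.3; filterByExpr, TMM, quasi-likelihood test, Benjamini-Hochberg threshold of 0.05), which was tested on simulated data. Alternatives were DESeq2 1.42.0, other scalings, no filter, second-strand counts, and leaving out libraries. Each mouse gave 1 library.

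Segments were named if they ranked first in a library, overall or within a chain, were among the 10 largest sums, the 3 per chain with the highest median level or the 3 smallest p-values of a comparison, or lay at the threshold. Of the marker, constant region, J segment and recombination lists, the 4 most abundant genes could be named. Other segments and genes were named after their values were seen. The segments and lists were chosen with earlier results of these data known. Positions and sequences came from GENCODE M21 (GRCm38), in which 2 of the 118 identifiers carry another symbol. Values of some single genes are not reported here.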

Additional observations from a re-analysis of the deposited data

Results flagged for a closer look

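In groups of 5 or 7 libraries, the highest or lowest value was called far from the others when its gap to the nearest one took up more of the group's range than chance gives in about 1 of 20 groups. Of 69 groups of values examined, 36 held such a library. Most groups were levels of segments picked for high counts, which came largely from D-3 IR 10 and D+1 IR 3. The 36 are therefore a description and cannot be set against chance. In the summed V level these were control 6 at 8.52 CPM, D-3 IR 10 at 109 CPM and D+1 IR 3 at 146 CPM.

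In the D-3 IR group the library was D-3 IR 10 each time. Its levels were 5.89 CPM for Igkv6-32, 5.16 CPM for Iglv1, 5.06 CPM for Igkv10-96, 4.91 CPM for Igkv1-117 and 3.90 CPM for Igkv5-39. They were 2.82 CPM for Igkv19-93, 2.34 CPM for Igkv16-104, 2.32 CPM for Igkv6-15, 1.99 CPM for Igkv6-23, 1.69 CPM for Igkv12-44 and 0.931 CPM for Igkv8-30. Ighv1-26 was at 1.61 CPM and Ighv1-82 at 1.08 CPM there, and the constant regions Ighm, Igkc and Igha at 337, 296 and 47.0 CPM.

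In the D+1 IR group it was D+1 IR 3, except for Igha, where D+1 IR 20 stood apart at 75.1 CPM. The levels in D+1 IR 3 were 15.5 CPM for Igkv12-44, 10.7 CPM for Iglv1, 4.56 CPM for Igkv1-117, 4.11 CPM for Igkv10-96 and 3.56 CPM for Igkv6-23. They were 3.38 CPM for Igkv6-15, 3.14 CPM for Igkv19-93, 2.865 CPM for Igkv16-104, 2.42 CPM for Igkv8-30, 2.04 CPM for Igkv6-32 and 1.73 CPM for Ighv1-26. Igkc was at 234 CPM and Ighm at 288 CPM.

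In the control group, Ighv1-82 stood apart in control 4 at 0.331 CPM. Igkv5-39 and Igkv12-44 did so in control 6, at 0.971 and 0.0511 CPM, and the latter value came from 3 counts.

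A further 67 V genes that are counted in the single-library files are not listed in the table of all libraries, and they held 178 counts. Control libraries had at most 6 of these counts. More were found in D-3 IR 10 with 59, D-3 IR 14 with 37, D+1 IR 3 with 26, D-3 IR 16 with 21 and D+1 IR 20 with 18. In D-3 IR 14, 33 of the 37 were those of Igkv4-73, annotated as a pseudogene. In D-3 IR 10, 32 of the 59 were those of Igkv2-109.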

How the results depend on the processing

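No paired analysis was run, since the labels give no pairing of libraries between groups. With DESeq2, 2 genes were called in D+1 IR versus control and 56 in D-3 IR versus D+1 IR, against 0 with edgeR, and none was a V segment. The median number of segments with 10 or more counts was 2 in the control and 2 in the D+1 IR group, and at a common number of V counts the D+1 IR median was 14.0. Leaving single libraries aside, these are the 5 summaries of a comparison or group that moved, and 61 stayed within the spread between mice or within 1.5 times the count. Among the other values, 192 stayed, 12 moved and 4 reversed. With segments of 50 or more summed counts, the heavy share fell to 11.0, 13.3 and 16.9% in control, D-3 IR and D+1 IR mice, since many heavy segments are then left out. With library size scaling alone, the log2 difference of Igkv10-96 in D-3 IR versus D+1 IR was 0.018 in place of -0.017. Without D+1 IR 1, 2 and 3, whose files carry another series number, the same comparison gave 0.95 for Igkv1-117, 0.71 for Ighv1-26 and 1.52 for Iglv1. These took the place of -0.21, -0.13 and -0.90. Leaving out D+1 IR 3 alone gave 1.41 for Igkv1-117 and 1.99 for Iglv1, so the set cannot be told apart from that library. The cause was not tested.

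With 1 library left out at a time, 0 genes were called by edgeR in every comparison, and the direction of some segments turned. In D-3 IR versus D+1 IR the log2 difference ran from -3.26 to 1.41 for Igkv1-117, -3.67 to 1.68 for Igkv10-96, -3.05 to 1.99 for Iglv1 and -0.36 to 0.11 for Ighv1-26. In D-3 IR versus control it ran from -0.70 to 3.07 for Igkv1-117, -1.29 to 3.14 for Igkv10-96 and -0.028 to 0.56 for Igkv8-30. The lowest values of Igkv1-117, Igkv10-96 and Iglv1 were those without D-3 IR 10, and their highest in D-3 IR versus D+1 IR those without D+1 IR 3. The fits without both libraries, and the halved counts, were added after seeing the data. With both left out, 1 segment was tested. Depth limits the usage values: 8 of the 19 libraries held under 100 V counts.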
